A study of Mus musculus with 8 samples.

Results

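A set of 10 genes of the bone morphogenetic protein (BMP) pathway is described here in whole mouse embryos of embryonic day 9.5. They were chosen by symbol from a table of 41709 gene symbols, as 6 ligands (Bmp2, Bmp4, Bmp5, Bmp6, Bmp7 and Bmp10), 3 receptors (Bmpr1a, Bmpr1b and Bmpr2) and the secreted modulator Bmper. The set was picked because Bmp2 was higher in every mutant, so the difference between genotypes is given for the 10 genes as a description, with no test. All 10 reached 1 TPM in at least 4 embryos. TPM sets the reads of a gene against its length and the depth of the library, so levels of different genes can be compared.

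RNA was sequenced from 4 mutant embryos, homozygous for the K399A substitution in Smo (SmoK399A/K399A), and from 4 wild-type (WT) embryos (Smo+/+). Both came from matings of SmoK399A/+ females with SmoK399A/+ males, in several litters that the labels do not assign to embryos, and the labels give no strain. The substitution is carried in the germ line and so by every cell of the mutants. Smo encodes Smoothened, which passes the Hedgehog signal across the membrane.

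BMP ligands are secreted as dimers and bind receptor kinases of type I (Bmpr1a, Bmpr1b) and type II (Bmpr2), which phosphorylate SMAD proteins that then enter the nucleus with Smad4. In the mouse embryo at this stage BMP signals act in the heart, where Bmp2 is known from the atrioventricular canal and Bmp10 from the trabeculae. They also act in the dorsal neural tube, the limb buds, the pharyngeal arches and the membranes around the embryo.

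The libraries held 57.73 to 59.13 M reads (M, mega) in genes whose reads could be recovered from the TPM values. All 8 markers of embryonic tissues were present in every embryo, among them Sox2 of the neural tube, Meox1 of the somites and Myl7 of the heart. Mutants 3 and 4 stood apart in mt-Nd6, at 4.06 and 10.8 TPM against 27.9 to 36.2 TPM in the other 6 libraries. Over all 13596 genes tested, limma called 0 genes at an adjusted p under 0.05 (0%), with 1842 at an unadjusted p under 0.05 (13.5%), and limma voom on recovered reads also called 0.

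Bmp2 was the ligand that chose the set. In mutants 1 to 4 it was at 19.3, 13.4, 15.8 and 13.7 TPM, against 7.31, 8.29, 9.35 and 8.87 TPM in WT 1 to 4. Every mutant lay above every WT embryo, and mutant 1 was the highest. Bmp2 (chromosome 2, 133552159 to 133562885, build GRCm38, protein coding) averaged 15.6 ± 2.72 TPM in mutants and 8.45 ± 0.877 TPM in WT (SD, n = 4 each). The ratio of means was 1.84, and the log2 fold change of TPM + 1 was 0.80 ± 0.12 (SE), with a 95% interval from 0.52 to 1.08.

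Bmp5, a ligand known in the mouse from skeletal and heart development, was the only other member without overlap between the groups. It was at 21.6, 12.3, 13.3 and 15.2 TPM in mutants and at 12.04, 10.9, 10.05 and 11.5 TPM in WT. Mutant 1 was far above the other mutants, and the lowest mutant, mutant 2, was just above the highest WT embryo. Bmp5 (chromosome 9, 75775364 to 75900310) averaged 15.6 ± 4.17 TPM in mutants and 11.1 ± 0.859 TPM in WT. The log2 fold change was 0.43 ± 0.15 (95% interval 0.08 to 0.77), and 0.27 once mutant 1 was left out. In all, 2 of 10 members had every mutant above every WT embryo, where the share over all genes tested was 3.63%, and 0 of 10 had every mutant below, where it was 3.82%. The members were chosen on this contrast, so nothing is read from these counts.

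Bmp10, a ligand of the trabecular heart muscle, was at 4.89, 2.74, 4.10 and 2.71 TPM in mutants and at 2.59, 3.65, 2.07 and 2.18 TPM in WT. Mutants 1 and 3 were above all WT embryos, while mutants 2 and 4 lay within the WT range. Bmp10 (chromosome 6, 87428994 to 87437677) averaged 3.61 ± 1.07 TPM in mutants and 2.62 ± 0.719 TPM in WT, a log2 fold change of 0.34 ± 0.19 (95% interval -0.09 to 0.77). Without mutant 1 it was 0.21. It was the member of lowest level, and 175 to 410 reads stood behind each value, so that the counting error at the lowest was 7.56%, against a spread between embryos of 29.6% of the mean in mutants and 27.4% in WT.

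Bmp4, the close relative of Bmp2 with roles in mesoderm, limb and dorsal neural tube, was the most abundant ligand. It was at 56.1, 40.5, 45.9 and 40.6 TPM in mutants and at 48.6, 36.1, 34.4 and 43.0 TPM in WT. The groups overlapped, and only mutant 1 was above all WT embryos. Bmp4 (chromosome 14, 46383520 to 46390669) averaged 45.8 ± 7.31 TPM in mutants and 40.5 ± 6.54 TPM in WT, and its log2 fold change was 0.17 ± 0.13 (95% interval -0.12 to 0.47), or 0.07 without mutant 1. An antisense gene, Gm15222, overlaps Bmp4, and the counting is not stated to use strand, so the reads of the pair cannot be told apart there.

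Bmp7, a ligand of many epithelia and of the roof plate, was at 45.2, 26.4, 30.1 and 28.6 TPM in mutants and at 30.9, 33.0, 29.2 and 28.6 TPM in WT. Mutant 1 was the highest of the 8 embryos and mutant 2 the lowest. The means of Bmp7 (chromosome 2, 172868012 to 172940321) were 32.6 ± 8.53 TPM in mutants and 30.4 ± 1.97 TPM in WT. Its log2 fold change of 0.07 ± 0.15 (95% interval -0.26 to 0.40) became -0.10 without mutant 1. Bmp6, a ligand best known in the adult for iron balance, was at 5.60, 4.26, 4.74 and 3.19 TPM in mutants and at 4.02, 5.32, 3.88 and 3.30 TPM in WT. Mutant embryos held both the highest and the lowest value of Bmp6 (chromosome 13, 38345107 to 38500302). It averaged 4.45 ± 1.00 TPM in mutants and 4.13 ± 0.849 TPM in WT, a log2 fold change of 0.08 ± 0.16 (95% interval -0.29 to 0.45) that was -0.02 without mutant 1. The end of Bmp6 overlaps that of Txndc5 on the other strand, which reached 226.3 TPM.

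**Figure D1:**
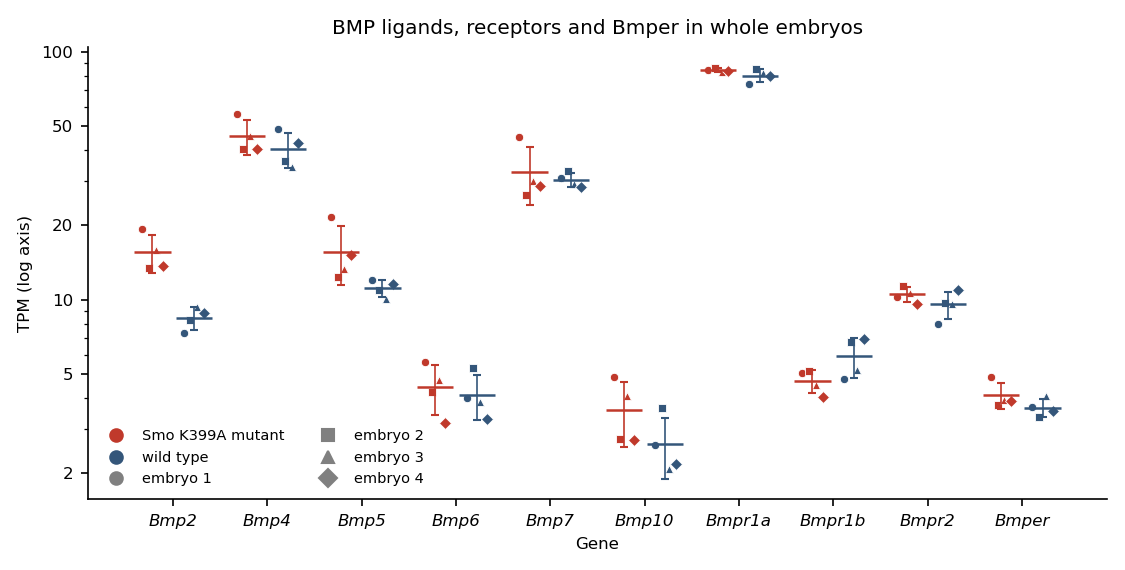
TPM of the 10 genes in each embryo, on a log axis. Red symbols are the 4 mutants and blue symbols the 4 WT embryos, with the symbol shape giving the embryo number within its genotype (embryos with the same number are not paired); horizontal lines are means and bars are SD. The groups are separate for Bmp2 and Bmp5, and mutant 1 is the highest embryo for all 6 ligands and for Bmper.

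The bases before the transcription start are shown for 3 ligands: Bmp5, the other ligand without overlap, Bmp10, the ligand of the trabeculae, and Bmp4, the closest relative of Bmp2 with a window. They are the 250 bases upstream in RefSeq (build GRCm38.p6), at chr9:75775115-75775364 on the + strand for Bmp5, chr6:87428744-87428993 on the + strand for Bmp10 and chr14:46390670-46390919 on the - strand for Bmp4. Each is written 5′ to 3′ along its gene, and capitals mark GATAA or its reverse complement, the core of the sites that GATA factors bind. 
Bmp5: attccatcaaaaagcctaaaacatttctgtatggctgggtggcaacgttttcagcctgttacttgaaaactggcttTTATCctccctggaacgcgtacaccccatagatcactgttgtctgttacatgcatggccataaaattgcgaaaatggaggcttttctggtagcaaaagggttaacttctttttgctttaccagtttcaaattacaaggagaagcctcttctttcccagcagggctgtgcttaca
Bmp10: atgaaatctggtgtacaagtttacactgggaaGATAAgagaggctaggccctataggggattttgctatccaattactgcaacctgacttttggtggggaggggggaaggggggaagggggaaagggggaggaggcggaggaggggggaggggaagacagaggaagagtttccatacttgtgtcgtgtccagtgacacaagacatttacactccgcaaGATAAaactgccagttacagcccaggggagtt
Bmp4: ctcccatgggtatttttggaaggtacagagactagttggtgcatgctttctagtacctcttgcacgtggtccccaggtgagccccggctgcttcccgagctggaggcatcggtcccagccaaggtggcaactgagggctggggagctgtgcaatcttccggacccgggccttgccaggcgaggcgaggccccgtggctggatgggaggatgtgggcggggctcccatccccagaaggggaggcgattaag
The Bmp5 window held 1 match, the Bmp10 window 2 and the Bmp4 window 0, where 22.6% of the windows of all genes hold GATAA on either strand. None of the 3 windows held GACCACCCA, the consensus bound by GLI factors (0.225% of all windows), GGCGCC, a core bound by BMP-activated SMADs (9.59%), or TATAAA (12.4%), each searched on both strands. A match is a match of letters only. GC content was 42.8% for Bmp5, 52.0% for Bmp10 and 63.2% for Bmp4, beside a median of 52.4% over all windows. Windows were found for 8 of the 10 members, all but Bmp2 and Bmp7. Those of Bmp6, Bmpr1a, Bmpr1b, Bmpr2 and Bmper, not printed here, held no GATAA and no GACCACCCA. GGCGCC was in the windows of Bmpr1a and Bmpr2, and TATAAA in a window of Bmpr1b. The printed windows are a choice among the 8 members, so nothing is read from how many of them hold a match.

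For the receptors Bmpr1a and Bmpr2 the genotypes overlapped. Bmpr1a, the type I receptor that most embryonic tissues use, was by far the most abundant of the 10 genes. It was at 84.2, 86.3, 82.5 and 83.6 TPM in mutants and at 74.0, 85.2, 81.7 and 79.8 TPM in WT. The groups overlapped through WT 2, and WT 1 was the lowest. The means of Bmpr1a (chromosome 14, 34410734 to 34503341) were 84.2 ± 1.59 TPM in mutants and 80.2 ± 4.70 TPM in WT, a log2 fold change of 0.07 ± 0.05 (95% interval -0.05 to 0.19), or 0.03 without WT 1. Bmpr2 (chromosome 1, 59763400 to 59879014), the type II receptor, was at 10.3, 11.4, 10.7 and 9.65 TPM in mutants and at 8.01, 9.69, 9.64 and 11.0 TPM in WT. Its groups overlapped too, at means of 10.5 ± 0.726 TPM in mutants and 9.58 ± 1.21 TPM in WT, for a log2 fold change of 0.13 ± 0.10 (95% interval -0.10 to 0.36), and of 0.05 once WT 1 was left out.

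Bmpr1b, a type I receptor known from cartilage and neural tissue, was the only member whose mean was lower in mutants. It was at 5.06, 5.17, 4.54 and 4.05 TPM in mutants and at 4.80, 6.75, 5.23 and 6.92 TPM in WT. Mutants 3 and 4 were below all WT embryos, and mutants 1 and 2 lay between WT 1 and WT 3. Bmpr1b (chromosome 3, 141837136 to 142169425) averaged 4.71 ± 0.517 TPM in mutants and 5.92 ± 1.07 TPM in WT, a log2 fold change of -0.27 ± 0.13 (95% interval -0.56 to 0.02). Without mutants 3 and 4, which stood apart in mt-Nd6, it was -0.17.

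Bmper, which encodes a secreted BMP-binding protein of endothelial cells that can limit or aid signalling, was at 4.86, 3.77, 3.96 and 3.90 TPM in mutants and at 3.70, 3.35, 4.08 and 3.56 TPM in WT. Only mutant 1 was above all WT embryos. Bmper (chromosome 9, 23223076 to 23485200) averaged 4.12 ± 0.499 TPM in mutants and 3.67 ± 0.304 TPM in WT, a log2 fold change of 0.13 ± 0.11 (95% interval -0.11 to 0.37), and of 0.06 once mutant 1 was left out.

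**Figure D2:**
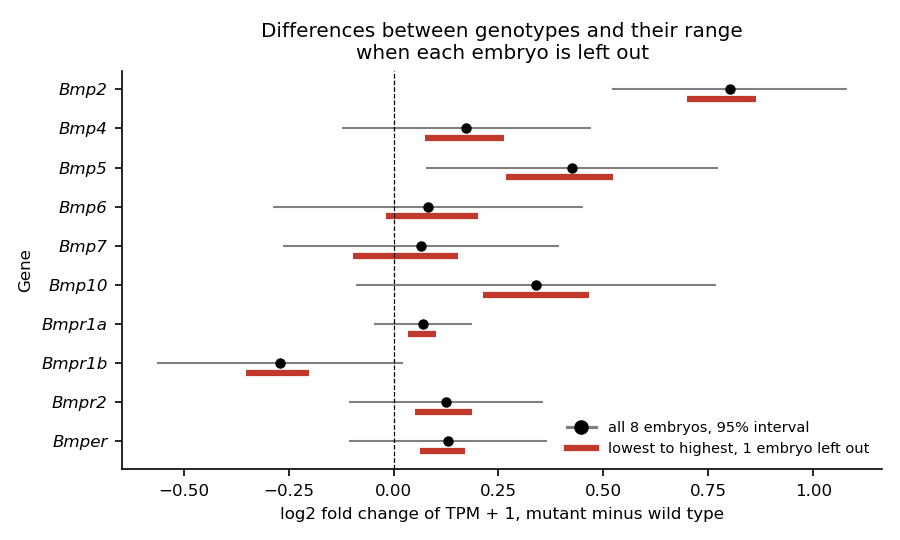
Log2 fold change of TPM + 1, mutant minus WT, for the 10 genes. Black points with grey lines give the value over 8 embryos with its 95% interval, and red bars run from the lowest to the highest value when 1 embryo is left out. Bmp2 stays between 0.70 and 0.86, Bmp6 and Bmp7 cross 0, and Bmpr1b stays below 0.

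Across the 10 genes the median log2 fold change was 0.13, with 9 above 0 and 1 below, against a median of -0.04 over all genes tested, of which 37.7% were above 0. The set was chosen on this contrast, so nothing is read from this median or these signs. In 7 of the 10 genes mutant 1 held the highest value of the 8 embryos, in 2 (Bmpr1a and Bmpr2) mutant 2, and in Bmpr1b WT 4. The 6 ligands together summed to 152.7, 99.7, 114.1 and 104.1 TPM in mutants and to 105.5, 97.3, 88.9 and 97.4 TPM in WT. Mutants 1 and 3 were above all WT embryos in this sum, and mutants 2 and 4 were within their range. The 3 receptors together averaged 99.4 ± 2.52 TPM in mutants and 95.7 ± 6.31 TPM in WT.

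In WT embryos the order of levels, from the highest mean, was Bmpr1a, Bmp4, Bmp7, Bmp5, Bmpr2, Bmp2, Bmpr1b, Bmp6, Bmper and Bmp10. The ranges of neighbours were separate from Bmpr1a down to Bmp5 and between Bmp2 and Bmpr1b, and overlapped for every other pair of neighbours. Bmp2 and Bmpr2 exchanged places: Bmp2 was above Bmpr2 in 4 of 4 mutants, whereas Bmpr2 was above Bmp2 in 4 of 4 WT embryos. Since Bmp2 was picked for being higher in every mutant, the exchange restates that choice. No other neighbours were reversed in all embryos of a genotype.

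Ratios within a library do not depend on how libraries are scaled; those given here were chosen after the values were seen and have no test. The ratio of Bmp2 to Bmp4 was 0.344, 0.332, 0.345 and 0.338 in mutants and 0.150, 0.229, 0.272 and 0.207 in WT. The ratio of Bmp2 to Bmp7 was 0.428 to 0.526 in mutants and 0.236 to 0.320 in WT, also without overlap. The groups overlapped in the ratio of Bmp2 to Bmp5, at 0.894 to 1.19 in mutants and 0.607 to 0.930 in WT, and in that of Bmp2 to Bmp10, at 3.86 to 5.06 in mutants and 2.27 to 4.52 in WT, with 2 of 4 mutants above all WT embryos in each. In the ratio of Bmp2 to Bmp4 the mutants were close to each other and all above the WT embryos, although Bmp2 and Bmp4 themselves varied among mutants by 17.4% and 16.0% of their means. Bmp2 made up 12.7% to 13.9% of the summed TPM of the 6 ligands in mutants and 6.93% to 10.5% in WT. Bmp7 was 26.4% to 29.6% of that sum in mutants and 29.3% to 33.9% in WT, and Bmp4 36.7% to 40.7% in mutants and 37.1% to 46.1% in WT, so that the groups overlapped for both. Among the receptors, the ratio of Bmpr1b to Bmpr1a was 0.0601, 0.0599, 0.0550 and 0.0484 in mutants and 0.0649, 0.0792, 0.0639 and 0.0867 in WT. Every mutant was below every WT embryo in this ratio, at 0.0559 ± 0.00550 in mutants and 0.0737 ± 0.0111 in WT (SD, n = 4 each).

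**Figure D3:**
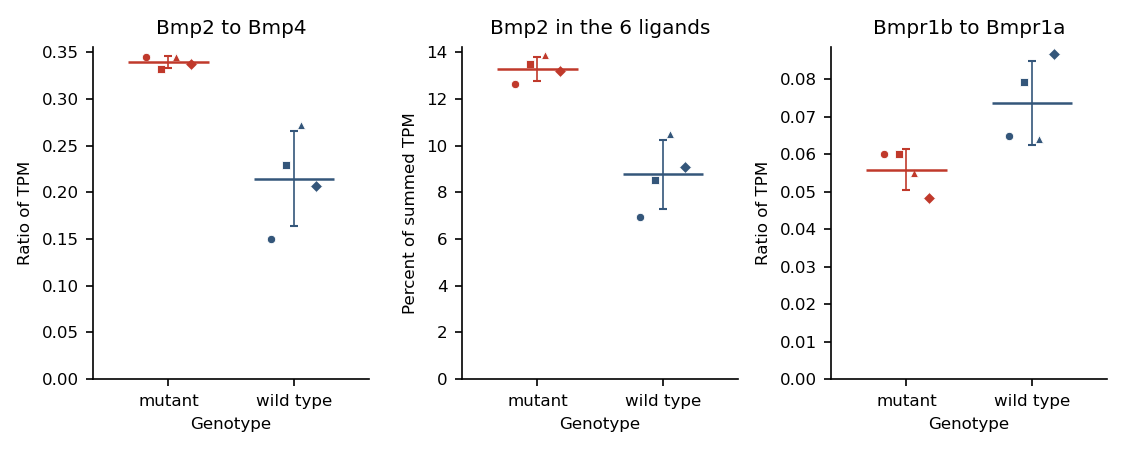
Ratio of Bmp2 to Bmp4, share of Bmp2 in the summed TPM of 6 ligands, and ratio of Bmpr1b to Bmpr1a, in the 4 mutants (red) and the 4 WT embryos (blue), with symbol shapes giving the embryo number. Lines are means and bars are SD; all axes start at 0. The genotypes are separate in all 3 panels, and mutants span only 0.332 to 0.345 in the ratio of Bmp2 to Bmp4.

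The genes whose profile was most like that of Bmp2 were Fam78a, Hcn4, Gata5, Fbxo32 and Nrp1. Likeness was the root mean square difference over the 8 embryos between deviations of log2(TPM + 1) from each gene's mean, among 10310 genes with a mean of at least 5 TPM, and since the genotypes weigh in it, it is a description. Fam78a was nearest, at a difference of 0.13. It was at 9.65, 6.59, 7.996 and 7.13 TPM in mutants and at 4.19, 5.12, 4.83 and 5.32 TPM in WT. Hcn4, the pacemaker channel of the heart, differed by 0.14 and averaged 9.35 ± 1.91 TPM in mutants and 4.93 ± 0.906 TPM in WT. Gata5, a transcription factor of heart and endoderm, differed by 0.15 and averaged 17.2 ± 3.38 TPM in mutants and 8.85 ± 0.404 TPM in WT. Fbxo32, which encodes a ubiquitin ligase subunit of muscle, and Nrp1, a coreceptor for VEGF and semaphorins, each differed by 0.16.

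The remaining pathway was examined through 62 further genes in 6 lists, of which 53 were tested. None passed the threshold in either direction. At an unadjusted p under 0.05 there were 8 higher and 2 lower in mutants, where over all genes tested 754 of 13596 were higher (5.55%) and 1088 lower. In 5 of the 53 every mutant was above every WT embryo, beside 3.63% of all genes tested, and in 0 every mutant was below, beside 3.82%. Their median log2 fold change was 0.03.

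Of 8 other ligands, only Gdf6 and Gdf7 were tested. Gdf6, a growth factor of joints and the eye, averaged 7.05 ± 2.65 TPM in mutants and 5.11 ± 0.564 TPM in WT (limma adjusted p = 0.438), with 10.8 TPM in mutant 1. Leaving out mutant 1 brought its log2 fold change of 0.35 to 0.15. Gdf7, a ligand of the roof plate, averaged 2.898 ± 0.745 TPM in mutants and 2.28 ± 0.534 TPM in WT (limma adjusted p = 0.506). Leaving out mutant 3 brought its log2 fold change of 0.24 to 0.13.

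All 8 other receptors and coreceptors were tested, 4 with a log2 fold change above 0 and 4 below. Eng, the endoglin coreceptor of endothelium, averaged 25.3 ± 1.92 TPM in mutants and 19.5 ± 3.06 TPM in WT (limma adjusted p = 0.283). Acvr1, a type I receptor, was at 16.2, 15.6, 16.1 and 15.7 TPM in mutants and at 13.2, 15.0, 13.8 and 14.2 TPM in WT (limma adjusted p = 0.340). Its groups did not overlap, by a narrow margin. Acvrl1, the type I receptor of endothelium, averaged 10.7 ± 1.93 TPM in mutants and 8.81 ± 0.380 TPM in WT (limma adjusted p = 0.405), and Acvr2b, a type II receptor, 47.9 ± 7.63 TPM in mutants and 44.0 ± 2.91 TPM in WT (limma adjusted p = 0.646). Without mutant 1 the log2 fold change of Acvrl1 was 0.15 in place of 0.24, and without mutant 4 that of Acvr2b was 0.03 in place of 0.11.

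Of 18 extracellular antagonists 17 were tested, 12 above 0 and 5 below, at a median of 0.06. Fst, or follistatin, which binds activins and some BMPs, averaged 19.9 ± 3.82 TPM in mutants and 15.1 ± 2.54 TPM in WT (limma adjusted p = 0.346). Chrd, or chordin, averaged 1.07 ± 0.392 TPM in mutants and 1.43 ± 0.300 TPM in WT (limma adjusted p = 0.481). Leaving out mutants 3 and 4 brought its log2 fold change of -0.24 to -0.040. Kcp, a chordin-like protein, averaged 1.94 ± 0.895 TPM in mutants and 2.79 ± 0.581 TPM in WT (limma adjusted p = 0.417), with the 2 lowest values in mutants 3 and 4, and leaving these out brought its log2 fold change of -0.41 to -0.018. Cer1, or cerberus, was at 0.154 TPM in mutant 1 and at 2.09 to 3.47 TPM in the other mutants, against 2.17 to 3.74 TPM in WT (limma adjusted p = 0.506). Leaving out mutant 1 brought its log2 fold change of -0.53 to -0.11.

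Of 7 processing proteases 5 were tested. Furin, which cleaves BMP precursors, was at 23.9, 18.0, 19.99 and 20.6 TPM in mutants and at 16.1, 17.4, 16.7 and 17.0 TPM in WT, without overlap (limma adjusted p = 0.299). Bmp1, a metalloprotease that cleaves chordin and no BMP ligand despite its name, averaged 15.7 ± 1.80 TPM in mutants and 17.5 ± 1.12 TPM in WT (limma adjusted p = 0.455). Leaving out mutants 3 and 4 brought its log2 fold change of -0.15 to -0.024. Pcsk7 and Pcsk5, convertases like furin, had log2 fold changes of -0.05 (limma adjusted p = 0.823) and 0.03 (limma adjusted p = 0.919).

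All 9 intracellular transducers were tested, 2 above 0 and 7 below. Smad9, a SMAD activated by BMP receptors, was at 4.73, 4.34, 3.36 and 3.42 TPM in mutants and at 3.15, 2.31, 2.81 and 3.04 TPM in WT, without overlap (limma adjusted p = 0.313). Tab1, a partner of the kinase TAK1, averaged 30.5 ± 6.11 TPM in mutants and 37.6 ± 2.61 TPM in WT (limma adjusted p = 0.345), its lowest values were in mutants 3 and 4, and leaving these out brought its log2 fold change of -0.31 to -0.070. Smad5 averaged 56.1 ± 6.20 TPM in mutants and 61.2 ± 3.96 TPM in WT (limma adjusted p = 0.479). Leaving out mutants 3 and 4 brought its log2 fold change of -0.13 to -0.0079. Smad4, the common partner of receptor-activated SMADs, had a log2 fold change of 0.03 (limma adjusted p = 0.762).

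All 12 response genes were tested, 8 above 0 and 4 below, at a median of 0.09. Smad6, an inhibitory SMAD induced by BMP, was at 35.2, 25.8, 32.5 and 27.3 TPM in mutants and at 22.7, 21.6, 23.0 and 24.8 TPM in WT (limma adjusted p = 0.281). Tbx20, a T-box factor of heart muscle, was at 19.7, 9.46, 10.9 and 10.2 TPM in mutants and at 5.77, 7.01, 6.27 and 7.92 TPM in WT (limma adjusted p = 0.281). Neither gene overlapped between genotypes. The groups overlapped in all other response genes. Log2 fold changes were 0.09 for Id1, 0.14 for Id2, -0.10 for Id3, 0.08 for Smad7 and -0.13 for Msx1. Smad6, Tbx20, Atoh8 and Id4 are named for having the smallest p of the list, so they do not stand for it. Atoh8, a helix-loop-helix factor, averaged 23.2 ± 1.63 TPM in mutants and 20.1 ± 1.61 TPM in WT (limma adjusted p = 0.341). Id4, an inhibitor of helix-loop-helix factors abundant in neural tissue, averaged 8.49 ± 2.00 TPM in mutants and 13.2 ± 3.88 TPM in WT (limma adjusted p = 0.333).

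**Figure D4:**
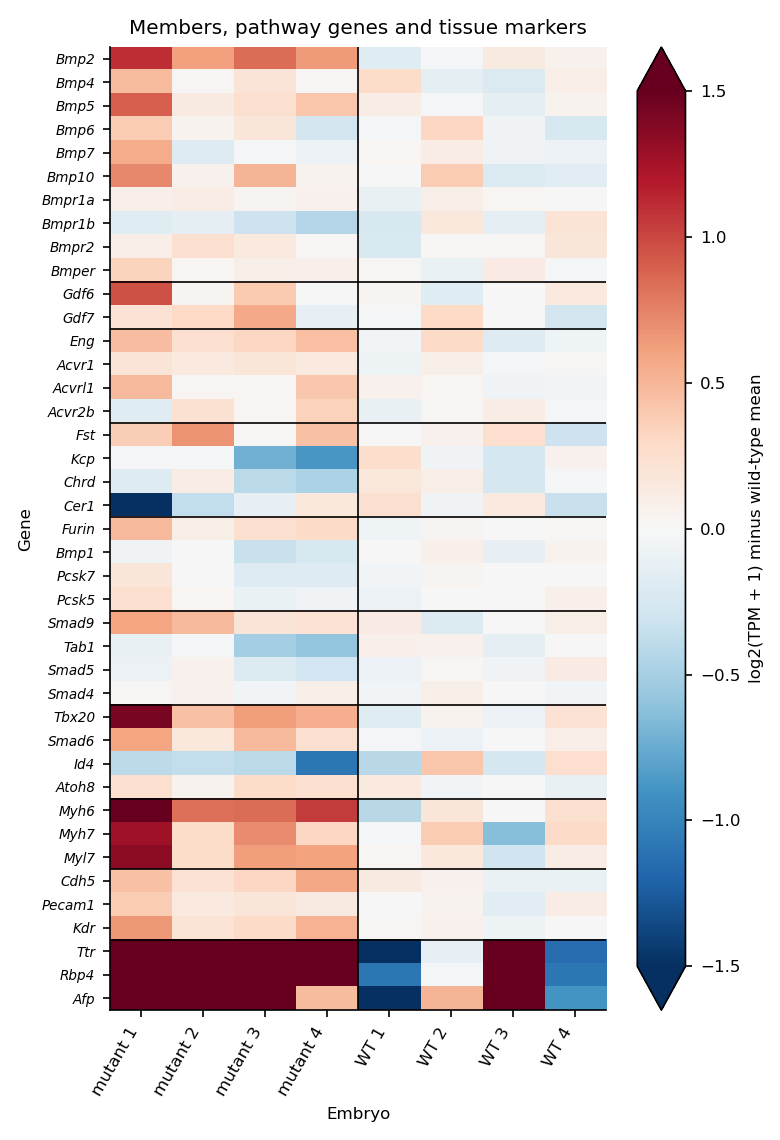
Difference of log2(TPM + 1) from the WT mean in each embryo, mutants on the left and WT on the right; colours saturate at 1.5 in either direction. Horizontal lines part the 10 members, then other ligands, other receptors and coreceptors, antagonists, proteases, transducers and response genes (up to 4 of each with the smallest p), and then 3 markers each of heart muscle, endothelium and yolk sac endoderm. Bmp2, Tbx20 and Myh6 are red in every mutant, and 7 of the 10 members are highest in mutant 1.

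Transcripts of other tissues differed between the embryos beside these genes. In bulk samples, a change in the number of cells of a type and a change in RNA per cell cannot be told apart. Heart muscle markers, led in the list by Myh6, Myh7 and Myl7, summed to 4281, 2092, 2672 and 2400 TPM in mutants and to 1778, 2049, 1422 and 1926 TPM in WT. Of the 13, 11 had a log2 fold change above 0 (37.7% over all genes tested) and 8 were higher at an unadjusted p under 0.05 (5.55% over all genes tested), but none passed after adjustment, as in the lists that follow. Endothelial markers, led by Cdh5, Pecam1 and Kdr, summed to 198.9 to 275.3 TPM in mutants and 178.9 to 209.4 TPM in WT, with 9 of 10 above 0 and 7 higher at an unadjusted p under 0.05. Yolk sac endoderm markers, led by Ttr, Rbp4 and Afp, summed to 1255, 779.7, 212.7 and 142.7 TPM in mutants and to 15.7, 39.9, 246.6 and 20.4 TPM in WT, with 10 of 10 above 0 and 10 higher at an unadjusted p under 0.05. Trophoblast and decidua markers, led in the list by Prl3d1, Prl3b1 and Prl2c2, summed to 133.5 to 418.8 TPM in mutants and 75.3 to 123.6 TPM in WT. The 6 of 8 that were tested were all above 0, Prl3b1 only at 0.02, with 3 higher at an unadjusted p under 0.05. Hand1 alone, at 87.5 to 167.5 TPM in mutants and 60.9 to 87.7 TPM in WT, held most of the sum in every embryo but mutant 2. It made up 106.8 of 133.5 TPM in mutant 4 and 87.7 of 123.6 TPM in WT 1, so that without Hand1 the sums of the genotypes overlap. In 0 of the 6 genes tested was every mutant above every WT embryo. The highest sum, in mutant 2, was mostly Prl8a2, at 291.3 TPM there and at 7.66 to 49.2 TPM in the other mutants. Markers of the roof plate and dorsal neural tube, led by Lmx1a, Wnt1 and Wnt3a, summed to 171.1 to 212.2 TPM in mutants and 191.1 to 240.7 TPM in WT, 4 above 0 and 4 below, with 0 at an unadjusted p under 0.05. The core Hedgehog targets Gli1, Ptch1 and Hhip had log2 fold changes below 0, and none passed. Without mutant 3, Gli1, a transcription factor of the pathway, was at -0.26 in place of -0.53, the receptor gene Ptch1 at -0.011 in place of -0.12, and Hhip at 0.020 in place of -0.10. Without mutants 3 and 4 Gli1 was at -0.13 and Hhip at 0.065. No marker of these lists was at 0 in every embryo.

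Bmp2 was set beside these markers embryo by embryo, with ratios chosen after the values were seen. Mutant 1 was the highest for Bmp2 and for the heart and yolk sac sums. Mutant 2 was second in the yolk sac sum and had the lowest Bmp2 of the mutants. Mutants 3 and 4 had yolk sac sums of 212.7 and 142.7 TPM, with 15.8 and 13.7 TPM of Bmp2. WT 3 had a yolk sac sum of 246.6 TPM, with 9.35 TPM of Bmp2. These are single embryos, and no cause is read from them or from the ratios below. The ratio of Bmp2 to Myh6 was 0.101, 0.117, 0.138 and 0.103 in mutants and 0.154, 0.114, 0.146 and 0.117 in WT, and the groups overlapped. Relative to Myl7, Bmp2 was at 1.43%, 2.09%, 1.92% and 1.70% in mutants and at 1.35%, 1.39%, 2.16% and 1.54% in WT, which overlapped as well. Relative to Cdh5 it was 0.335, 0.273, 0.302 and 0.216 in mutants and 0.157, 0.187, 0.238 and 0.226 in WT, with 3 of 4 mutants above all WT embryos. Bmp10 relative to Myl7 was 0.336% to 0.496% in mutants and 0.379% to 0.612% in WT. Myh6 and Myl7 were heart markers higher in every mutant, at log2 fold changes of 1.07 and 0.71. Of the 13 heart markers 11 were above 0, and the 2 below were Nppa, at -0.37, and Nppb, at -0.55. Ratios of Bmp2 to Nppa and Nppb were not taken, so the overlap holds for Myh6 and Myl7 only. Without mutant 1 and WT 3, the embryos with the most yolk sac transcript of each genotype, the log2 fold change of Bmp2 was 0.74 and that of Bmp5 0.22. The embryos that remained had yolk sac sums of 142.7 to 779.7 TPM in mutants and 15.7 to 39.9 TPM in WT. That fit therefore does not make the genotypes alike in yolk sac transcript, and nothing is read from it about yolk sac content. The part of heart, endothelium and yolk sac transcripts in the differences of the BMP genes was not tested.

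**Figure D5:**
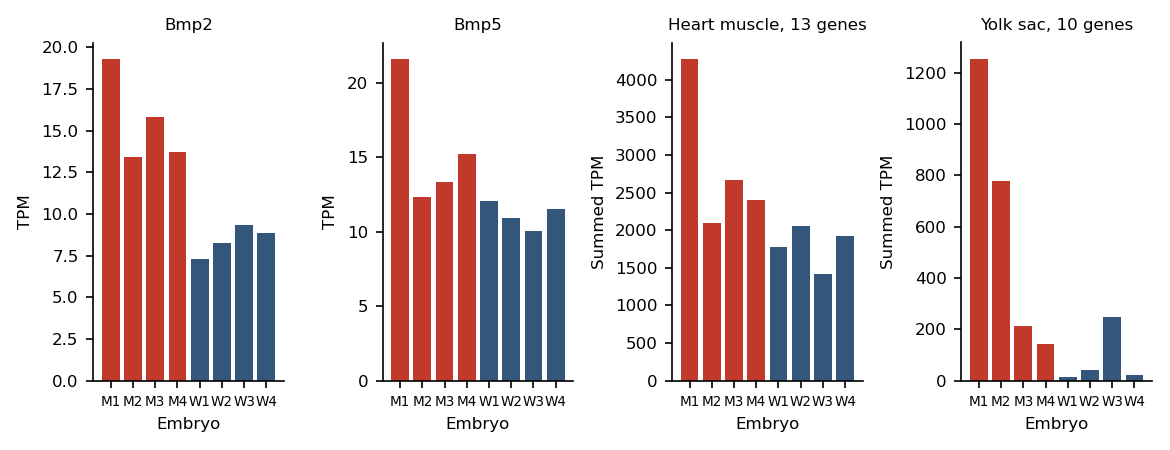
Bmp2 and Bmp5 in TPM, and the summed TPM of 13 heart muscle and 10 yolk sac endoderm markers, in mutants 1 to 4 (M, red) and WT 1 to 4 (W, blue). Bars start at 0 and show single embryos; mutant 1 is the highest in all 4 panels, and WT 3 has the most yolk sac transcript of the WT embryos, at 246.6 TPM.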

How the data were processed

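RNA was measured by sequencing in 8 single embryos, grouped by the genotype in the labels. Per the labels, a TruSeq kit was used for the libraries, which ran on a NovaSeq. The authors deposited 1 table of TPM per gene symbol, with build GRCm38 (mm10) per the submitters' processing notes. For the aligner, the counter, the annotation and the use of strand, nothing was given in the sources used here. No sample column was left over (0).

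Whole reads behind each TPM were recovered with merged exon lengths of GENCODE M21. They came out whole within 0.02 reads in all 8 libraries for 22464 of 23993 genes with a value (93.6%), all 10 members included. The 95% intervals are confidence intervals of the log2 fold change between group means, not ranges of single embryos. Their width rests on the spread between embryos, which limma moderates by empirical Bayes toward that of genes of similar level. Mutants were compared with WT by limma 3.58.1 (R 4.3.3) on log2(TPM + 1), with a trend and genotype as the only term, for genes with at least 1 TPM in at least 4 embryos. Tests were two-sided, with Benjamini-Hochberg adjustment over 13596 genes and a threshold of 0.05; fold changes of low genes are understated on this scale. Separate embryos were the replicates.

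The members, the gene lists and the motifs were chosen with earlier results of these data known. Named were all members, up to 4 genes of each pathway list with the smallest p, the 5 genes most like Bmp2, and the first 3 genes of each marker list. Alternatives were other pseudocounts, filters and scalings, weights, no trend, a replicate block, leaving out each embryo, and leaving out mutants 3 and 4. Limma voom on recovered reads, and the fit without mutant 1 and WT 3, were chosen after seeing the data. Python 3.11.15, pandas 2.3.3, numpy 2.4.6 and matplotlib 3.10.9 made the tables and figures.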

Additional observations from a re-analysis of the deposited data

Results flagged for a closer look

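Among 80 groups of 4 embryos examined (the members, the named pathway genes, 2 ratios and 2 sums), 3 held an embryo whose gap to the nearest of the other 3, as a share of the group's range, was above Dixon's 95% critical value for groups of 4. Chance sets apart about 1 in 20 groups in this way. Tbx20 was at 19.7 TPM in mutant 1, against 9.46 to 10.9 TPM in the other mutants, a gap of 86.2% of the range. Without mutant 1 its log2 fold change was 0.54, against 0.76 with all embryos. Id4 was at 5.50 TPM in mutant 4, against 9.37 to 9.63 TPM in the other mutants, a gap of 93.8%. Hhip, a Hedgehog-binding protein, was at 2.45 TPM in WT 1, against 3.20 to 3.25 TPM in the other WT embryos, a gap of 93.6%. No group of a BMP ligand, receptor or Bmper passed that value; the widest gaps were those of mutant 1 in Bmper, at 82.2% of the range, in Bmp7, at 80.3%, and in Bmp5, at 69.0%.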

How the results depend on the processing

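Of the 197 values of the 10 members under alternatives, 4 changed sign, all of Bmp6 or Bmp7. Leaving out each embryo gave -0.017 to 0.20 for Bmp6 and -0.10 to 0.15 for Bmp7 (log2), and without mutant 1 and WT 3 they were -0.036 and -0.12. Bmp2 ran from 0.70 to 0.87 over 20 alternatives. Leaving out each embryo gave -0.043 to 0.070 for Pcsk5, -0.13 to 0.00082 for Pcsk7 and -0.25 to 0.020 for Hhip; without mutants 3 and 4 Pcsk7 was 0.10 and Hhip 0.065, and Pcsk5 was -0.035 with array weights and -0.043 without mutant 1 and WT 3. The cause was not tested. The number of genes called was 0 to 1 when each embryo was left out (1 without mutant 2) and 3 without mutants 3 and 4. At an unadjusted p under 0.05 there were 1842 genes. Leaving out WT 1 gave 1158, leaving out WT 2 1213 and leaving out mutant 2 3094, the range over all embryos being 1158 to 3094; array weights gave 3511. No further pathway gene was called under any alternative run. Bmp6, Bmp10 and Bmper have no value with the filter of 5 TPM. With the replicate block 0 genes were called and 1900 reached an unadjusted p under 0.05; the numbers do not pair embryos, whose deviations correlated at -0.062, 0.040, -0.19 and -0.25 for numbers 1 to 4. Median ratio scaling moved the median of all genes from -0.04 to -0.004. Counting error was at most 7.56% for a member, in Bmp10.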
